A study of Mus musculus with 60 samples.

Results

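The livers compared here were taken 7 days (PHX-D7) and 14 days (PHX-D14) after 2/3 partial hepatectomy (PHX), the removal of 2/3 of the liver. The 6 samples, 3 for each time, are 6 of the 60 samples of the series and belong to a table of 18 liver samples that also holds normal liver and livers at 6 h, 24 h and day 3. Both groups were wild-type mice, C57BL/6 in the labels and C57BL/6J in the methods, used at an age of 8 to 10 weeks. Their labels name the operation and no other treatment or allele, and the 3 normal livers are labelled with the same genotype and strain and the treatment Normal. The labels state neither sex nor hour of collection, nor whether the 3 samples of a group are separate mice, so the p-values measure only the spread between these samples, which may be technical. The labels name no sham-operated group matched to day 7 or day 14, so the time after operation and the age at collection cannot be told apart. Each value is an FPKM, the reads on a gene per kilobase of its length, scaled to the number of mapped reads in the sample. A gene was analysed where 3 or more of the 6 samples reached 1 FPKM, which left 10448 of the 17475 rows of the table.

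Partial hepatectomy is the standard model of liver regeneration. Hepatocytes leave quiescence within hours, replicate their DNA over the next days and restore the liver mass, after which proliferation stops. Kupffer cells, the resident macrophages of the liver, and recruited leukocytes supply cytokines during the process. Adult hepatocytes also show sex-biased expression, set by the pulsatile growth hormone pattern of males, and the major urinary proteins (Mup), pheromone carriers made in the liver, are the best known male-biased products in mice. The study asked which transcription factors rise early and are back to normal at days 7 and 14. The comparison of these last 2 times shows what still differed between them.

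The depth recovered from the FPKM values was 57.3 M to 73.2 M reads (M, mega) at day 7 and 53.2 M to 61.3 M at day 14. A day 7 sample had reads on 15265 to 15533 genes and a day 14 sample on 14760 to 14773. The 10 most abundant genes took 15.4% to 17.1% of the reads at day 7 and 19.2% to 21.1% at day 14. Hepatocyte markers dominated all 6 samples. The summed level of 8 of them (Alb, Apoa1, Ttr, Serpina1a, Cyp2e1, Hnf4a, Cps1 and Tat) was 41310 to 47780 FPKM at day 7, 53250 to 63400 FPKM at day 14 and 54960 to 59500 FPKM in normal liver, and none of the 8 was called in either direction between the 2 days. Genes of the Y chromosome were read in all 6 samples. Eif2s3y, a translation factor subunit, was at 16.2 to 20.2 FPKM at day 7, 10.3 to 11.6 FPKM at day 14 and 29.2 to 41.5 FPKM in normal liver. Of 4 such genes measured, 0 were called between the 2 days. In all 4 the day 14 samples lay below the day 7 samples, beside 51.5% of all genes tested. At day 14, 3 of the 4 were called lower than normal liver, beside 1.71% of all genes tested. The cause was not tested. Among the samples that shared the estimate of the spread, 1 of the day 3 samples lay apart from the other 2.

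Expression was mostly lower at day 14 than at day 7. A gene was called where its fitted difference on the log2(FPKM + 1) scale had a limma adjusted p-value under 0.05 (Benjamini-Hochberg over all genes tested) and was at least 2-fold. Of the genes tested, 818 were called lower (7.83%) and 49 called higher (0.469%). These shares stand beside every list count between the 2 days on the deposited scale. A 4-fold difference was reached by 213 of the lower and 9 of the higher genes. The median log2 change of all genes was -0.24, so the whole distribution was shifted towards lower values on the deposited scale. When the samples were given equal medians the split was 505 lower and 103 higher, and after quantile normalization it was 490 lower and 133 higher. All 3 samples of day 14 lay below all 3 of day 7 in 817 of the 818 lower genes, beside 51.5% of all genes tested. Of the 818, 260 passed the filter only through the day 7 samples and therefore had to differ. Without the day 3 sample that lay apart, 844 genes were called lower and 64 higher.

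**Figure D1:**
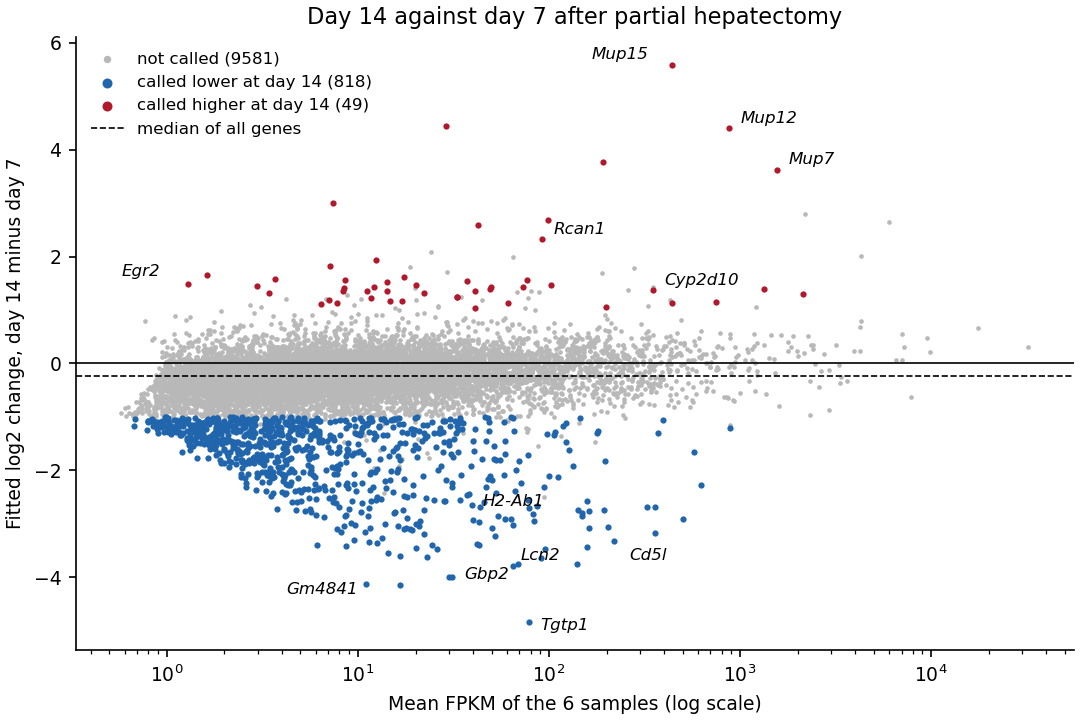
Fitted log2 change (day 14 minus day 7) against mean FPKM of the 6 samples on a log axis, 1 point per gene tested. The 818 genes called lower (blue) lie mostly at low and middle levels and reach down to Tgtp1, the 49 called higher (red) are led by Mup genes, and the dashed line is the median of all genes at -0.24.

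Interferon-induced genes were lower at day 14. Of 32 measured genes of the interferon response and MHC class I list 23 were called lower, beside 7.83% of all genes tested. Such genes are switched on when interferons signal to hepatocytes, endothelial cells and leukocytes, and many encode GTPases that attack intracellular pathogens. Tgtp1, a GTPase induced by interferon gamma, was at 139, 161 and 156 FPKM in the day 7 samples and at 2.75, 4.73 and 5.98 FPKM in the day 14 samples. Tgtp1 is not in that list and had the largest fitted fall of the genes tested, with a log2 change of -4.85 ± 0.31 (SE, limma adjusted p = 1.9e-08), and the 3 normal livers were at 1.91 to 3.64 FPKM. Gbp2, a guanylate-binding protein of the same defence system, was at 61.9, 57.7 and 52.2 FPKM at day 7 and at 2.24, 3.29 and 2.51 FPKM at day 14, and fell by 3.99 on the log2 scale (SE 0.17). Of the same family, Gbp2b, which is not in the list, fell by 4.15 and Gbp3 by 3.45. Gm4841 and Gm12250, predicted genes of the interferon-inducible GTPase family, fell by 4.12 and 3.60. Near-identical copies of these GTPase genes exist, so the division of reads among them is uncertain. Ubd, which encodes the ubiquitin-like modifier FAT10, was at 52.7 to 65.3 FPKM at day 7 and at 2.73 to 2.96 FPKM at day 14. Serpina3g, a protease inhibitor of activated immune cells, fell by 3.79, and Ly6a, the surface antigen Sca-1, from 233 to 290 FPKM at day 7 to 16.8 to 20.3 FPKM at day 14. In each of these genes all day 14 samples lay below all day 7 samples, which was a condition for naming the largest falls. Such separation held in 51.5% of all genes tested. None of these genes was called different from normal liver at day 14.

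Short stretches just before the start of these genes are shown because they hold the letters that interferon-activated factors are known to bind. They are RefSeq promoter sequences of build GRCm38.p6, read 5′ to 3′ on the strand of the gene, and capitals mark every match to GAAA followed after any 2 bases by another GAAA, the core of the interferon-stimulated response element, or to TTCNNNGAA, the palindrome bound by STAT dimers, on either strand.
Tgtp1 (chr11:48992299-48992349, minus strand): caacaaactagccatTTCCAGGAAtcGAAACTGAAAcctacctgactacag
Gbp2b (chr3:142594695-142594734, plus strand): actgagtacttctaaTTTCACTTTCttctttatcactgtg
Gbp2 (chr3:142620589-142620628, plus strand): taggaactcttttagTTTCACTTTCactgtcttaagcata
Gbp3 (chr3:142559984-142560029, plus strand): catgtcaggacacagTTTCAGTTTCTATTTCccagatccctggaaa
Serpina3g (chr12:104236099-104236137, plus strand): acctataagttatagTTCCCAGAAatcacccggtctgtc
Gm12250 (chr11:58183737-58183821, plus strand): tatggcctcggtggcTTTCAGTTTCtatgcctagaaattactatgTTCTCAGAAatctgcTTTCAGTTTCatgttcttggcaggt
Ubd and Cxcl9 had neither match in the part before the start, the only part searched for these stretches. Neither did Marco, Timd4 and Hbb-bs, described below, which were searched in the same way. No stretch is given for Gm4841 or Ly6a. The shares that follow are over the whole window of 300 bases around the start. The element core, which was chosen for the search after the falls had been seen, was present in 3.49% of all 27025 promoters of this length. It was present in 12 of the 20 interferon-list genes that were called lower and had a promoter in the table, and in 4 of the 7 that were not called. TTCNNNGAA was present in 5 of the 20 and 1 of the 7, beside 8.47% of all promoters. A promoter was found for 624 of the 818 genes called lower, under 80%, so the shares over all called genes are void and are not given. For the interferon-list genes not called it was found for 7 of 9, also under 80%, so their counts are not read as a comparison.

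Of the 32 measured genes of the interferon list 0 were called higher and 9 in neither direction, and the median log2 change was -1.81. Cxcl9, a chemokine that attracts T cells and is induced by interferon gamma, was at 75, 85.6 and 70.9 FPKM at day 7 and at 5.80, 7.64 and 6.02 FPKM at day 14, a log2 change of -3.39 ± 0.37 (limma adjusted p = 4e-06). Iigp1, the most abundant of the named GTPase genes, went from 579 to 737 FPKM at day 7 to 67.6 to 76.2 FPKM at day 14. Its day 14 level was also called lower than normal liver, where it was at 141 to 161 FPKM. Ifng, the interferon gamma gene itself, chosen after its values had been seen, had 33, 106 and 57 reads in the day 7 samples and 0, 0 and 5 reads in the day 14 samples, and at most 2 reads in each of the other 12 livers. It was too low to be tested.

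MHC class II genes, which present antigen to helper T cells and are expressed by dendritic cells, B cells and macrophages, fell together. H2-Ab1 was at 296, 247 and 239 FPKM at day 7 and at 31.3, 35.7 and 43.7 FPKM at day 14 (log2 change -2.79 ± 0.29, limma adjusted p = 2.9e-06). H2-Aa fell by 2.74, H2-Eb1 by 2.83 and H2-DMb1, which helps load peptide, by 3.12. In the list of dendritic cell and MHC class II genes 8 of 10 measured genes were called lower, beside 7.83% of all genes tested, and 0 higher. In all 10 the day 14 samples lay below the day 7 samples, beside 51.5% of all genes tested. The mean level of the list was 4.73 to 5.04 on the log2(FPKM + 1) scale at day 7 and 2.604 to 2.781 at day 14. Normal livers were at 2.27 to 2.76. At 6 h, 24 h and day 3 the list was at 1.202 to 1.90, below normal liver, and of the 18 samples the 3 of day 7 were highest. Of the 10 genes, 3 passed the filter through the day 7 samples alone.

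**Figure D2:**
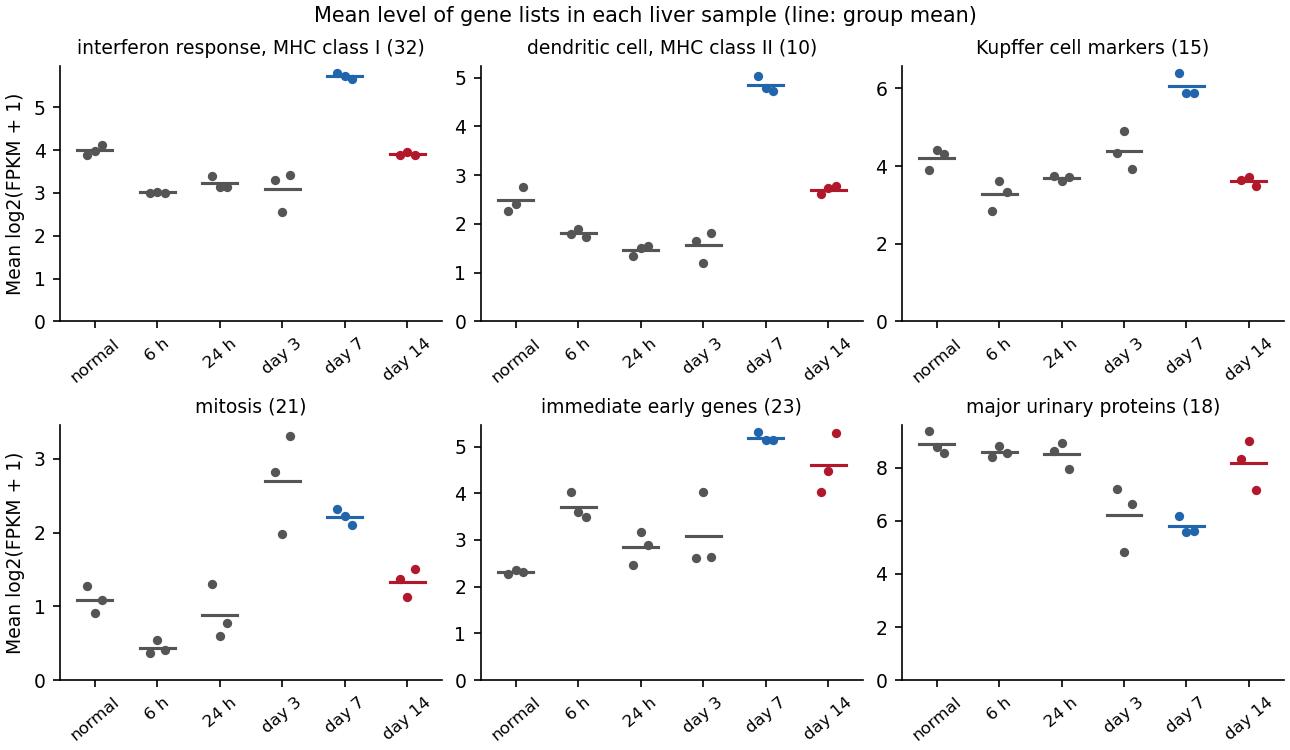
Mean log2(FPKM + 1) over the measured genes of 6 lists (number of genes in brackets) in each of the 18 liver samples, by group, with a line at each group mean. Interferon, MHC class II and Kupffer cell lists stand highest at day 7 (blue) in all 3 samples, the mitosis list is highest at day 3 and lower at day 14 (red) than at day 7, immediate early genes stay above normal at day 14 with 1 sample at the day 7 level, and major urinary proteins are low at day 3 and day 7.

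Macrophage genes were also lower. Cd5l, a secreted protein of Kupffer cells that keeps macrophages alive, was at 506, 341 and 348 FPKM at day 7 and at 39.4, 41.5 and 33.9 FPKM at day 14. Its log2 change was -3.33 ± 0.28 (limma adjusted p = 3.4e-07). Timd4, the receptor by which Kupffer cells bind dying cells, fell by 3.61, Marco, a scavenger receptor, by 3.64, and Adgre1, which encodes the antigen F4/80, by 3.10. Clec4f, a lectin restricted to Kupffer cells, was at 96.4 to 140 FPKM at day 7 and at 15.6 to 24.8 FPKM at day 14, and Vsig4, a complement receptor, at 38.8 to 66.4 and 5.31 to 8.45 FPKM. Both were called lower at day 14 than in normal liver, by 1.25 for Clec4f and 1.43 for Vsig4. Of 15 Kupffer cell markers measured, 13 were called lower, beside 7.83% of all genes tested, and 0 higher. The median of the list was -2.58 between the days and -0.69 for day 14 against normal liver. In a bulk sample fewer cells of a type and less RNA per cell cannot be told apart, and this holds for each cell type described here.

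Genes of monocytes and other leukocytes mostly followed the same direction. Ly6c2, a marker of inflammatory monocytes, was at 12.9, 13.8 and 13.6 FPKM at day 7 and at 1.599, 1.07 and 1.53 FPKM at day 14 (log2 change -2.59 ± 0.18). Lyz2, the lysozyme of myeloid cells, fell by 3.06 and Lgals3, galectin-3, by 3.19. Lyz2 is not particular to recruited cells here, with 311 to 462 FPKM at day 7 and 53.5 to 89.8 FPKM in normal liver. Of the other recruited macrophage markers, Ccr2 was not called (log2 change -0.89), though it was with a pseudocount of 0.1 (-2.14). Trem2 and Gpnmb were too low to be tested. In the recruited macrophage and monocyte list 5 of 12 measured genes were called lower and 0 higher, with changes from -3.19 to 0.38. The share of all genes called lower, 7.83%, stands beside this and each count on the deposited scale in this paragraph. Gzma and Gzmb, the granzymes of cytotoxic T and natural killer cells, fell by 2.81 and 2.79. Gzmb was at 11.8, 23.4 and 21.3 FPKM at day 7, at 1.59, 1.25 and 2.63 FPKM at day 14 and at 0.224 to 0.468 FPKM in normal liver, so both granzymes were still called higher than normal at day 14. Il2rb, a subunit of the IL2 receptor, fell by 1.54 and Nkg7, a granule protein, by 1.65. Of 13 T and NK cell markers measured, 10 were called lower, 4 of the 13 having passed the filter through day 7 alone. The B cell receptor genes Cd79a and Cd79b had at most 4.82 FPKM in any sample and fell by 1.12 and 1.46. The call of Cd79a was lost under equal sample medians (log2 change -0.82), where only 1 of the 5 measured genes of the B and plasma cell list stayed called lower, beside 3 on the deposited scale. With a pseudocount of 0.1 and with limma voom on recovered reads all 5 were called lower. Of all 10448 genes tested, 1255 and 1329 were called lower there. In the neutrophil list 6 of 8 genes were called lower, which became 3 after either rescaling and when day 7 replicate 1, day 7 replicate 3 or day 14 replicate 3 was left out. The neutrophil count was 5 with a pseudocount of 0.1 and 7 with voom. Of the chemokines, 11 of 17 were called lower (6 of the 17 passed the filter through day 7 alone), among them Ccl4 (fell by 1.93) and Cxcl2 (fell by 2.73), a neutrophil attractant.

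Endothelial, stellate and biliary markers had fewer calls. Among 22 endothelial markers 6 were called lower, with Cdh5, the cadherin of endothelial junctions, at 15.5 to 22.1 FPKM at day 7 and 6.23 to 6.72 FPKM at day 14. This count was 3 after either rescaling or without day 7 replicate 1, and 10 without day 7 replicate 3. Of 19 stellate cell and fibroblast markers 3 were called lower, beside 7.83% of all genes tested. The stellate count was 1 after either rescaling or without day 7 replicate 1 or day 14 replicate 2. With a pseudocount of 0.1 the endothelial and stellate counts were 11 and 6, and with limma voom on recovered reads 12 and 5. Of all 10448 genes tested, 1255 and 1329 were called lower in these settings. The cholangiocyte markers Krt7, Krt19, Epcam and Sox9 summed to 4.16 to 8.64 FPKM at day 7 and 5.57 to 8.87 FPKM at day 14. Only 2 of them, Krt19 and Sox9, passed the filter, and neither was called. Of 7 red cell genes measured 4, all of them globins, were called lower, and the same 4 were called higher than normal liver at day 7. Hbb-bs, an adult beta globin, was at 146, 103 and 136 FPKM at day 7 and at 13.8, 7.76 and 5.67 FPKM at day 14, a fall of 3.75 on the log2 scale (SE 0.96), and normal livers ranged from 5.89 to 38.5 FPKM. Hbb-bt fell by 3.36 and Hba-a1 by 3.39, while Alas2, the first enzyme of heme synthesis in red cell precursors, was at 43.0 to 50.5 FPKM at day 7 and 72.2 to 96.1 FPKM at day 14, with normal livers at 76.2 to 83.0 FPKM, and was not called. Globin copies share sequence, so the division of reads among them is uncertain. Markers of pancreatic acinar cells other than Cela1 (Prss2, Cpa1 and Pnlip), of skeletal muscle (Acta1 and Ckm) and of fat cells (Adipoq and Plin1) were at or near 0, apart from Adipoq at 2.58 FPKM and Plin1 at 0.643 FPKM in day 14 replicate 2. The mesothelial markers Msln and Upk3b summed to 7.08 FPKM in the highest day 7 sample and at most 2.33 FPKM at day 14. How far blood and leukocytes in the samples account for the other differences was not tested.

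**Figure D3:**
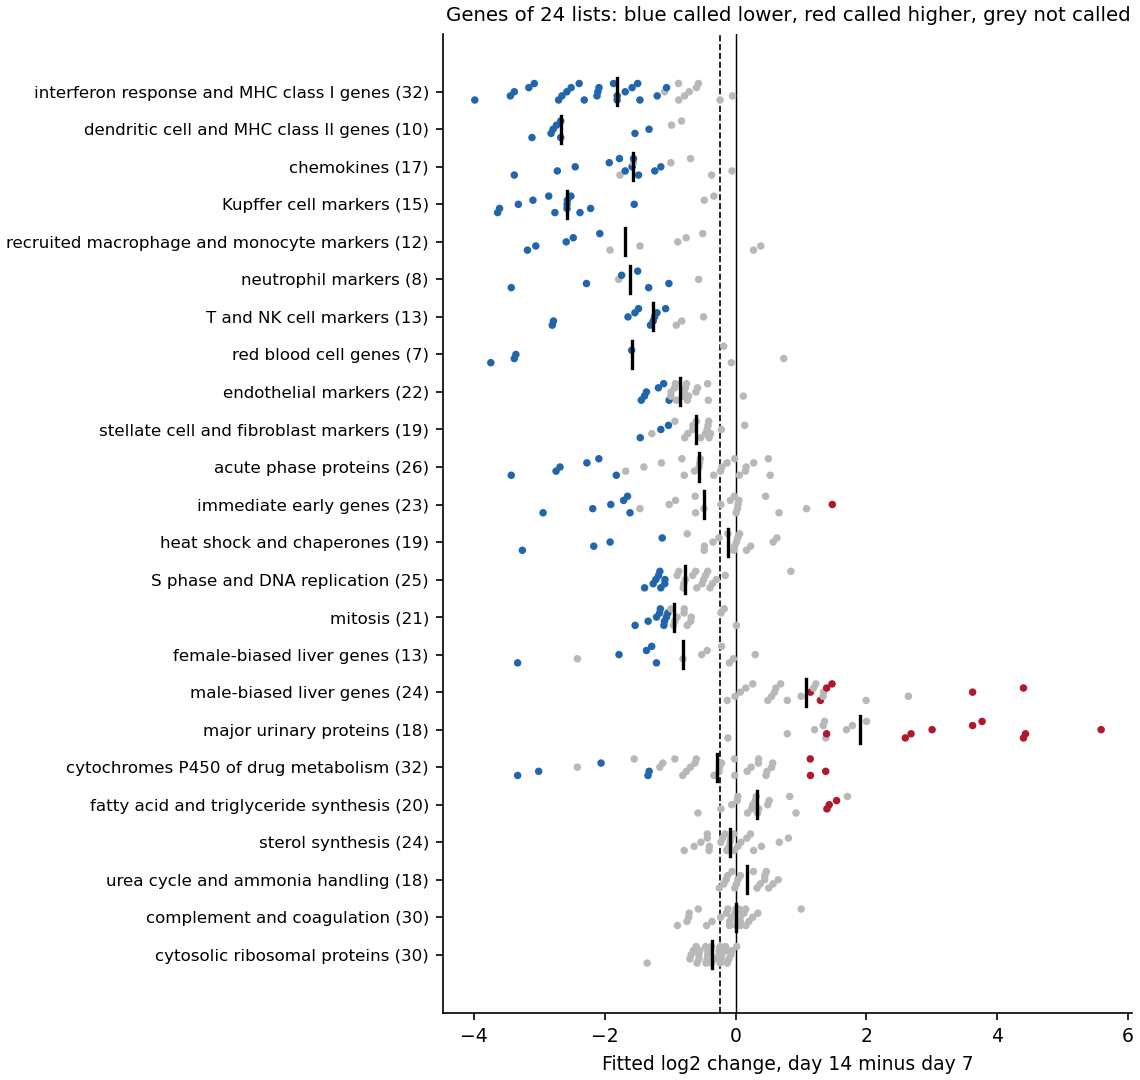
Fitted log2 change (day 14 minus day 7) of each measured gene in 24 lists, with the number of genes in brackets, a black bar at each list's median and a dashed line at the median of all genes. Immune and red cell lists lie to the left, with 13 of 15 Kupffer cell markers called lower (blue), male-biased genes and major urinary proteins lie to the right (red, called higher), and the urea cycle, complement and ribosomal protein lists have no called gene.

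Part of the acute phase response of hepatocytes was lower at day 14. Acute phase proteins are secreted by hepatocytes under IL6 and IL1. Lcn2, which binds bacterial siderophores and is also made by neutrophils, was at 215, 324 and 329 FPKM at day 7 and at 18.4, 21.6 and 41.0 FPKM at day 14 (log2 change -3.43 ± 0.71, limma adjusted p = 0.0018). Normal livers were at 3.72 to 7.68 FPKM. The serum amyloid genes Saa1 and Saa2 fell by 2.28 and 2.69 and Orm2, an orosomucoid, by 2.75. These 4 were among 6 of 26 acute phase genes called lower, and 0 were called higher. C3, the central complement protein, was at 2615 to 3312 FPKM at day 7 and 1877 to 2401 FPKM at day 14 and was not called. None of the 30 measured complement and coagulation genes was called, and their median was 0.01.

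Immediate early genes, which are transcribed within minutes of a stimulus without new protein synthesis, behaved unevenly. At day 7, 21 of 23 measured genes were called higher than normal liver, beside 8.28% of all genes tested. At day 14, 16 of 23 were called higher than normal, beside 1.04%. Between the days 6 were called lower and 1 higher. Fos was at 128, 127 and 129 FPKM at day 7, while the day 14 samples were at 5.52, 5.90 and 103 FPKM and normal livers at 0.693 to 1.19 FPKM. Its log2 change of -2.95 ± 0.74 became -4.26 without day 14 replicate 3, -2.27 without replicate 1 and -2.31 without replicate 2. That sample, day 14 replicate 3, was at the day 7 level for the whole list, with a mean of 5.29 on the log2(FPKM + 1) scale against 4.04 and 4.47 in the other 2 and 5.13 to 5.31 at day 7. Without it, 10 genes of the list were called lower. Fosb and Jun, partners in the AP-1 factor, were called lower as well, by 1.72 and 1.62. Jun was chosen after its values had been seen, and its day 14 replicate 3 was at 183 FPKM against 24.6 and 36.9 FPKM in the other 2. Another 16 genes of the list were not called. Chosen after their values had been seen, Atf3 had means of 66.2 and 74.6 FPKM at days 7 and 14 and 0.751 FPKM in normal liver, and Nr4a1, an orphan nuclear receptor, had means of 66.3 and 69.6 FPKM against 0.841 FPKM. Also chosen after their values had been seen were the metallothionein genes Mt1 and Mt2, which buffer zinc and respond to stress hormones. Their means were 556 and 345 FPKM at day 7, 591 and 404 FPKM at day 14, and 16.5 and 3.73 FPKM in normal liver. Egr2, a zinc finger transcription factor, was the gene that rose, from 0.155 to 0.245 FPKM at day 7 to 1.69 to 3.01 FPKM at day 14, and it passed the filter through day 14 alone. Hspa1a and Hspa1b, the stress-inducible members of the HSP70 family, fell by 3.26 and 2.17, and 4 of 19 heat shock genes and chaperones were called lower, the other two being Cirbp and Rbm3, RNA-binding proteins known to rise in the cold. The call of Cirbp was lost after either rescaling (-0.83 in both) and without day 7 replicate 1 or 3 or day 14 replicate 1 or 2, where its log2 change was -1.17 to -0.88, and the list count was then 3. The HSP70 copies differ little in sequence, so their separate values are uncertain. Ddit4, an inhibitor of mTORC1 induced by stress and glucocorticoids, was at 67.4 to 74.3 FPKM at day 7 and 4.75 to 16.0 FPKM at day 14.

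Genes of S phase and mitosis were partly lower at day 14 on the deposited scale. Top2a, the topoisomerase that separates chromosomes, was at 3.75, 3.76 and 2.72 FPKM at day 7 and at 0.686, 0.511 and 1.03 FPKM at day 14 (log2 change -1.34 ± 0.31, limma adjusted p = 0.0039). Normal livers were at 0.453 to 0.767 FPKM. Ube2c, which feeds mitotic proteins to the proteasome, was at 7.88 to 9.16 FPKM and 1.61 to 3.14 FPKM and fell by 1.54. Of 21 mitosis genes measured 9 were called lower and 0 higher, but 7 of the 21 had passed the filter only through day 7. Under equal sample medians 2 were called lower and after quantile normalization 1, where Top2a was at -0.9997. With a pseudocount of 0.1 and with limma voom on recovered reads 13 of the 21 were called lower. Of all 10448 genes tested, 1255 and 1329 were called lower there. Of 25 S phase genes 8 were called lower, among them Gins2, a subunit of the replicative helicase, which fell by 1.26. Without day 7 replicate 1 the S phase count was 2, and without day 7 replicate 2 or day 14 replicate 2 it was 5. Under either rescaling it was 1 of 25, near the share of all genes called lower there (505 and 490 of 10448), and Gins2 was then at -0.97 and -0.91. With a pseudocount of 0.1 the S phase count was 10, and with voom 11. Of 17 G1 cyclins and cell cycle inhibitors, 2 were called lower, beside 7.83% of all genes tested, 0 higher and 15 in neither direction. Their summed level was 552 to 597 FPKM at day 7, 565 to 773 FPKM at day 14 and 171 to 194 FPKM in normal liver, and 5 of the 17 were still called higher than normal at day 14. The mean level of the mitosis list was 1.98 to 3.31 at day 3, 2.11 to 2.32 at day 7, 1.12 to 1.51 at day 14 and 0.91 to 1.28 in normal liver, all on the log2(FPKM + 1) scale. Against normal liver 14 of the 21 genes were called higher at day 7 and 0 at day 14.

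The 4 transcription factors that the study followed up were near or below the filter at both times. The study chose them in part on these livers, as returning to normal by these days, so their values are not independent evidence. Foxm1, a driver of mitotic genes, was at 1.24, 1.06 and 1.12 FPKM at day 7 and at 0.355, 0.211 and 0.452 FPKM at day 14, and Mxd3, a MAX partner, at 1.995, 1.304 and 1.41 FPKM and at 0.644, 0.405 and 0.841 FPKM. The groups did not overlap for either gene, and the log2 changes of -0.68 ± 0.20 and -0.66 ± 0.16 had limma adjusted p-values of 0.017 and 0.0065 but were under 2-fold. The size depended on the pseudocount, since with 0.1 in place of 1 both genes were called lower (-1.53 for Foxm1 and -1.22 for Mxd3), as they were with limma voom on recovered reads (-1.79 and -1.33). Elf3, an epithelial ETS factor, was at 0.882 to 1.301 FPKM and 0.380 to 0.679 FPKM, and Barx2, a homeobox factor, was at most 0.063 FPKM, so neither passed the filter. Normal livers were at 0.086 to 0.283 FPKM for Foxm1, 0.221 to 0.359 FPKM for Mxd3 and 0.204 to 0.334 FPKM for Elf3. Every day 7 sample was above these ranges, though only Mxd3 was called higher than normal liver. At day 14 Mxd3 and Elf3 were still above the normal samples, and Foxm1 overlapped them.

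**Figure D4:**
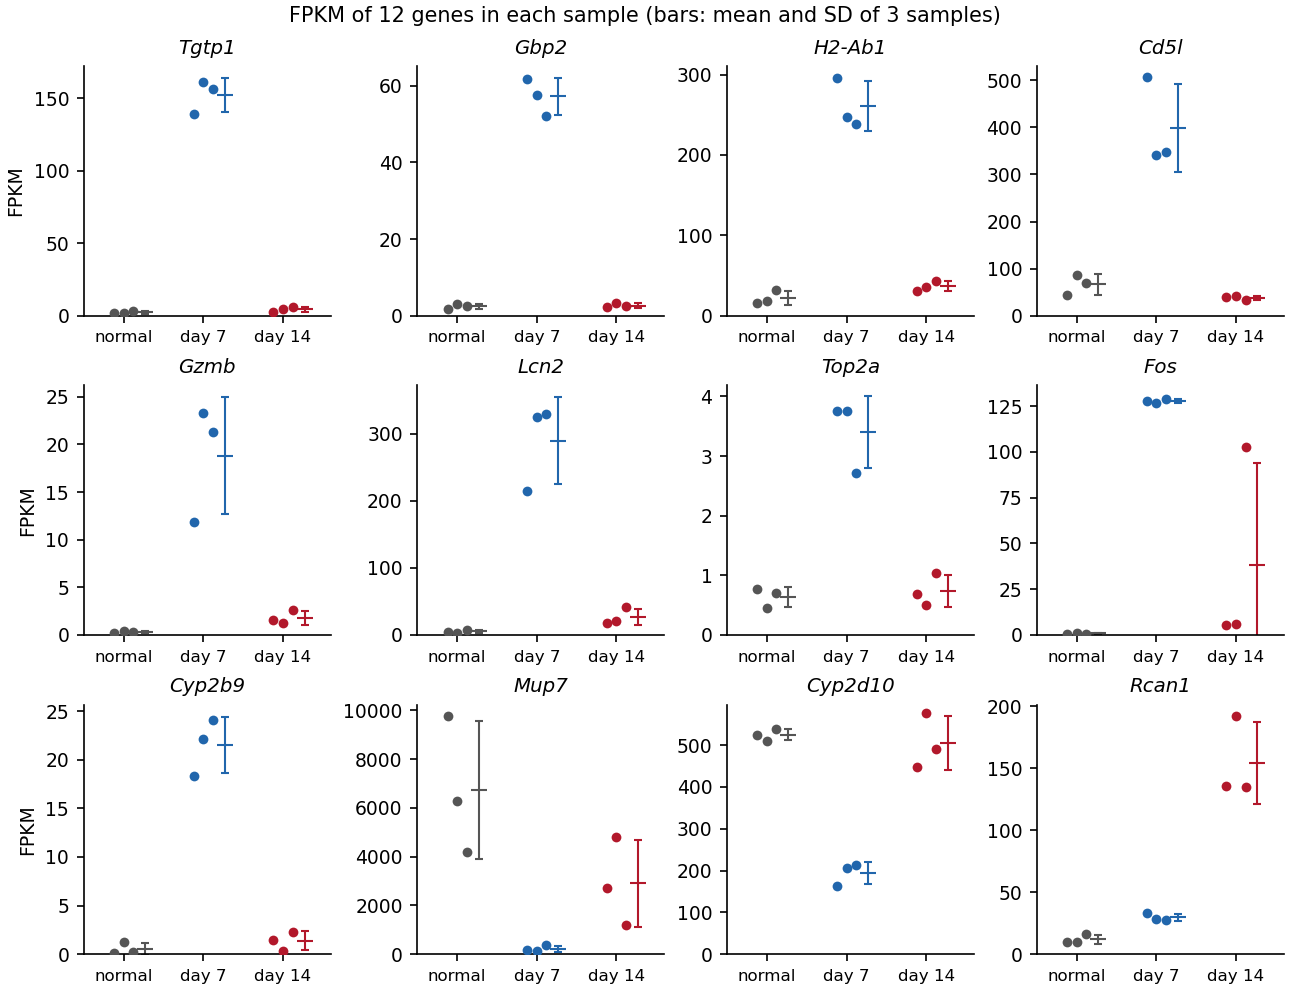
FPKM of 12 genes in the 3 normal, 3 day 7 and 3 day 14 samples, with the mean and SD of each group beside its points (the lower arm of Fos at day 14 is cut at 0). The first 7 genes and Cyp2b9 are highest at day 7, with Gzmb and Lcn2 still above normal liver at day 14. For Fos 1 day 14 sample is at 103 FPKM, Mup7 and Cyp2d10 are low at day 7, and Rcan1 is highest at day 14.

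The rises were led by the major urinary protein genes. Mup7 was at 168, 136 and 359 FPKM at day 7, at 2713, 4789 and 1201 FPKM at day 14 and at 4174 to 9756 FPKM in normal liver. Its log2 change was 3.62 ± 0.65 (limma adjusted p = 0.00063). Mup11 rose from 17.8 to 28.1 FPKM to 144 to 502 FPKM (log2 change 3.77), Mup1 from 7.07 to 11.9 FPKM to 29.8 to 101 FPKM (2.595), and Mup20, which encodes the male pheromone darcin, from 545 to 933 FPKM to 1187 to 2410 FPKM (1.39). Mup15 had the largest fitted rise, 5.59, which was 4.84 without day 14 replicate 2 and 6.18 without day 14 replicate 3. Of 18 measured genes of the family 9 were called higher and 0 lower, beside 0.469% of all genes, and in 13 all day 14 samples lay above all day 7 samples, beside 9.91% of all genes tested. The genes of this cluster are nearly identical, so the order of its members is uncertain and only the family as a whole is described. The summed level of the family was 5369 to 8690 FPKM at day 7, 13640 to 31280 FPKM at day 14 and 32520 to 52750 FPKM in normal liver. Against normal liver 14 of the 18 were called lower at day 7 and 1 at day 14.

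Most sex-biased liver genes were not called, though most male-biased genes lay higher at day 14. Of 24 male-biased genes measured, 6 were called higher, beside 0.469% of all genes tested, and 0 lower. Of the 6, 3 were the Mup genes Mup7, Mup12 and Mup20. The median log2 change was 1.07. The count was 4 or 5 when any 1 of the 6 samples was left out, and 10 without the day 3 sample that lay apart. In 20 of the 24 all day 14 samples lay above all day 7 samples, beside 9.91% of all genes tested, and in 0 below. Against normal liver 10 of the 24 were called lower at day 7, beside 0.852% of all genes tested, and 1 at day 14, beside 1.71%. Cyp2d9, a male-biased cytochrome P450, was at 434, 462 and 494 FPKM at day 7 and at 934, 1115 and 1030 FPKM at day 14 (log2 change 1.14 ± 0.16). Cyp2d10 rose from 164 to 212 FPKM to 448 to 576 FPKM (1.38) and Cyp2d22 from 33.5 to 40.3 FPKM to 78.8 to 93.1 FPKM (1.14). None of the 3 was called different from normal liver at day 14. Of 13 female-biased genes measured 5 were called lower and 0 higher, with a median of -0.81, and 3 were called lower after either rescaling. Cyp2b9, a female-biased cytochrome P450, was at 18.3, 22.2 and 24.1 FPKM at day 7, at 1.48, 0.340 and 2.27 FPKM at day 14 and at 0.0889 to 1.22 FPKM in normal liver (log2 change -3.34 ± 0.88, limma adjusted p = 0.0093). With a pseudocount of 0.1 this call was lost (log2 change -4.18, limma adjusted p = 0.057). The transporters Slc22a26 and Slc22a27 had means at day 14 under 1 FPKM and fell by 1.37 and 1.29, the latter under 2-fold after either rescaling, at -0.99 and -0.91. Only 13 of the 28 female-biased genes of the list were high enough to be measured, and 2 of the 13 passed the filter only through day 7.

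Cytochrome P450 genes went in both directions. Of 32 genes of drug metabolism measured, 5 were called lower and 3 higher, the 3 being the Cyp2d genes above. The shares of all genes tested were 7.83% lower and 0.469% higher. The count called lower was 4 after either rescaling and when any 1 of the 6 samples was left out, and 8 without the day 3 sample that lay apart. Cyp2c40 was at 17.0, 16.2 and 20.4 FPKM at day 7 and at 1.31, 1.75 and 0.978 FPKM at day 14, and normal livers were at 43.3 to 91.5 FPKM. Cyp2c69 was at 4.24 to 5.52 FPKM, 0.286 to 0.599 FPKM and 22.6 to 41.4 FPKM in the same order. Both were called lower than normal at day 7 and lower again at day 14, by 4.88 and 4.52 on the log2 scale against normal, and reads of these similar Cyp2c genes may be shared. Of 36 genes of phase II conjugation 4 were called lower, 1 higher and 31 in neither direction. The shares of all genes tested were 7.83% lower and 0.469% higher. With equal sample medians 1 of the 36 was called lower, beside 505 of all 10448 genes tested. Gstp1, a glutathione transferase, was the 1 called higher (log2 change 1.297), a call that was lost when any 1 of the 6 samples was left out. Nqo1, a quinone reductase induced by oxidative stress, fell from 17.5 to 20.3 FPKM to 2.90 to 4.66 FPKM, and Ugt2b35 from 155 to 176 FPKM to 69.8 to 75.5 FPKM, the latter under 2-fold with equal sample medians (-0.87).

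Several rises concerned regulators of metabolism and signalling. Rcan1, an inhibitor of calcineurin, was at 33.1, 28.2 and 27.6 FPKM at day 7 and at 136, 192 and 135 FPKM at day 14, a log2 change of 2.32 ± 0.32 (limma adjusted p = 5.5e-05). Normal livers were at 9.45 to 16.4 FPKM, and both times were called higher than normal. The level was not a steady rise, since it was at 19.6 to 38.5 FPKM at 6 h, 19.3 to 42.5 FPKM at 24 h and 10.3 to 22.1 FPKM at day 3. Noct, a circadian phosphatase, rose from 7.38 to 8.45 FPKM to 19.1 to 35.02 FPKM and was the 1 called gene among 20 genes of the circadian clock list. Tnfaip6, a hyaluronan-binding protein induced by inflammation, was at 0.129 to 0.240 FPKM at day 7 and at 1.57 to 4.88 FPKM at day 14, and passed the filter through day 14 alone. Srebf1, the factor that drives lipogenic genes, was at 36.7, 38.9 and 39.95 FPKM at day 7 and at 86.2, 93.8 and 145 FPKM at day 14 (log2 change 1.43 ± 0.37). It was 1 of 3 of the 20 fatty acid and triglyceride synthesis genes called higher, beside Fasn, the fatty acid synthase, and Lpin1, a count that was 1 without day 7 replicate 1, day 7 replicate 3 or day 14 replicate 3, 2 without 1 of the other three samples, and 5 with equal sample medians. The call of Lpin1 was lost whichever of the 6 samples was left out, and also with a pseudocount of 0.1, with voom and under either other filter. Foxa3, a hepatocyte pioneer factor, rose from 19.6 to 25.9 FPKM to 56.8 to 61.3 FPKM, and Pfkfb3, which drives glycolysis, from 3.57 to 4.51 FPKM to 8.03 to 16.9 FPKM. Slc10a2, an ileal-type bile acid transporter, rose from 2.40 to 2.66 FPKM to 8.75 to 14.3 FPKM, and the uncharacterized 1700017B05Rik from 4.30 to 4.44 FPKM to 14.1 to 29.6 FPKM.

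Several lists of hepatocyte metabolism and of general cell functions had no called gene on the deposited scale. Of 24 sterol synthesis genes, 18 genes of the urea cycle and ammonia handling, 30 cytosolic ribosomal protein genes, 30 nuclear genes of oxidative phosphorylation and 23 genes of ribosome biogenesis, 0 were called higher and 0 lower by limma. After either rescaling 1 sterol synthesis gene and 2 ribosome biogenesis genes were called higher. With a pseudocount of 0.1 or with voom 1 ribosome biogenesis gene was called higher. A call needed a 2-fold difference, so smaller ones are not counted. Cps1, the first enzyme of the urea cycle, was at 604 to 731 FPKM at day 7 and at 596 to 719 FPKM at day 14, and Alb, albumin, at 25710 to 31450 FPKM and 30890 to 40130 FPKM. The ribosomal protein genes had a median of -0.37 and the urea cycle genes of 0.17, on either side of the median of all genes. Among 16 apolipoproteins and lipid transfer proteins only Pltp was called, which fell by 1.64, and among 20 periportal genes only Ctsc, a lysosomal protease also abundant in leukocytes, which fell by 2.32.

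Set beside normal liver in the same fit, 865 genes (8.28%) were called higher and 89 (0.852%) lower at day 7, and 109 (1.04%) higher and 179 (1.71%) lower at day 14. These comparisons share their samples with each other and with the main one, so their counts are given side by side only. They depended on the scale. At day 7 there were 558 higher and 215 lower after quantile normalization and 605 and 158 with equal sample medians. At day 14 there were 121 higher and 116 lower, and 123 and 119, under the same rescalings, so the excess of lower calls was not kept, while 414 were lower with a pseudocount of 0.1 and 416 with voom. The median log2 change of all genes was 0.14 at day 7 and -0.07 at day 14 against normal liver. By list, 23 of 32 interferon genes were called higher than normal at day 7 and 0 at day 14, with 2 lower at day 14. Of 15 Kupffer cell markers 12 were called higher at day 7, and at day 14 0 were higher and 2 lower. Of 10 MHC class II and dendritic cell genes 8 were higher at day 7 and 0 at day 14. Of 8 neutrophil markers all 8 were higher at day 7 and 2 still at day 14.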

How the data were processed

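Poly(A) RNA of whole liver was sequenced as read pairs, and the values analysed are the FPKM the authors deposited, 1 per gene and sample. The submitters' processing notes name TopHat 1.4.1, Cufflinks 1.3.0 and build mm10. All 18 liver samples entered 1 limma 3.58.1 fit in R 4.3.3 on log2(FPKM + 1), with a mean for each of the 6 groups and a variance trend, and with Benjamini-Hochberg adjustment over the 10448 genes that passed the filter. Fold changes on this scale understate those of low genes. An exact permutation test of 3 against 3 samples cannot go below p = 0.1 and was not used. Groups are those of the labels, and no sample was left out.

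Low FPKM values are whole multiples of what 1 read is worth, so reads could be recovered for all 17331 genes with reads (tolerance 0.02 of a read), giving 52.1 M to 79.3 M reads (M, mega) per liver sample. They were used for depth and for limma voom as an alternative. The unit recovered may be a mate or a fragment. The 2 symbols listed more than once were kept as separate rows, and 25 rows carry symbols that a spreadsheet turned into dates. In values simulated for the 10448 genes of this comparison, 186 of 200 changed genes (93%) were called, with 6 wrong calls. No 2 samples of a group agreed within sampling noise, since the chi-square per gene was at least 31.6.

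The members and the 51 gene lists were chosen with earlier results of these data known, so no count of a list is independent evidence. Named are the 12 largest rises and 12 largest falls whose samples do not overlap, up to 4 called genes per list and direction, the 2 most abundant genes of a list with no call, the cell type markers and the 4 transcription factors of the study. Genes outside this rule are named as such. Promoters are RefSeq sequences (GRCm38.p6, the patch release of the build of the labels), the first listed for each gene, matched by symbol or an unambiguous synonym. The alternatives were other pseudocounts, filters, scalings, thresholds and sample sets. The result for 1 gene is not reported here.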

Additional observations from a re-analysis of the deposited data

How the results depend on the processing

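The 818 lower and 49 higher calls depended most on scale and threshold. The number called lower was 1255 with a pseudocount of 0.1, 1329 with voom on recovered reads, 473 with a filter at 5 FPKM (of 6749 genes tested), 490 after quantile normalization, 505 with equal sample medians, 2988 without a fold threshold, 1938 at 1.5-fold and 213 at 4-fold. The number called higher was 133 after quantile normalization, 103 with equal sample medians, 79 with the 6 samples alone, 197 without a fold threshold, 107 at 1.5-fold and 9 at 4-fold. All 49 higher genes stayed called under both rescalings, as did 505 (equal medians) and 487 (quantile) of the 818 lower genes. The median log2 change of all genes was -0.13 with no filter, 0.08 after quantile normalization and 0.06 with equal medians. Leaving out 1 of the 6 samples gave 678 to 884 lower and 38 to 49 higher. With the replicate block 820 genes were lower and 50 higher, and S100a8 became called (adjusted p = 0.048 by limma), as it did with the 6 samples alone and with voom. The replicate numbers are not known to pair mice, and deviations of same-numbered samples correlated at 0.31, 0.01 and 0.01. None of the 180 named genes tested changed sign past the threshold under the alternatives run, and 99 of 131 called kept their call whichever of the 6 samples was left out. Genes near 1 FPKM are limited by the pseudocount, and 3 samples per group limit the rest. Lists with no gene past the 5 FPKM filter give no value there. The cause of these shifts was not tested.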
